A study of Mus musculus with 36 samples.

Results

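Chemokines are small secreted proteins that direct the migration of cells along a gradient, and they act through receptors with 7 membrane-spanning helices that couple to inhibitory G proteins. They are named by the spacing of their first cysteines as CC, CXC or XC ligands (Ccl, Cxcl, Xcl), and their receptors carry matching names (Ccr, Cxcr, Xcr). Atypical receptors (Ackr) bind chemokines without that G protein signal and scavenge or transport them. In the brain, microglia are a known source of CC ligands, while Cxcl12 and Cxcl14 are known from neurons, glia and vessel walls. The genes were chosen by name alone, as protein-coding genes whose symbol begins with Ccl, Cxcl, Xcl, Ccr, Cxcr, Xcr or Ackr followed by a digit. The fractalkine pair Cx3cl1 and Cx3cr1 was left out. This gave 60 of the 24940 genes in the deposited count table, namely 38 ligands (24 CC, 13 CXC and 1 XC), 18 signalling receptors (11 CC, 6 CXC and 1 XC) and 4 atypical receptors.

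Bulk RNA of 3 brain regions (cortex, corpus callosum, striatum) came from males that were either controls or carried the MBP29-hα-syn transgene. That transgene puts human α-synuclein under a myelin basic protein promoter, active in oligodendrocytes, and its carriers, a model of multiple system atrophy, are called MSA here. Control and MSA mice each ate placebo chow or chow with PLX5622 at 1200 mg/kg, an inhibitor of the receptor CSF1R, from 4 weeks of age for 12 weeks. Microglia from forebrain of 16-week-old control and MSA mice were sorted as CD11b-positive, CD45-low cells, and they had no diet arm. The labels tag the sorted controls as heterozygous and the sorted MSA mice as homozygous for MBP29, whereas wild-type controls are named in the protocol. The 12 bulk groups held 2 or 3 libraries each, 30 in all, and the sorted microglia 3 per genotype.

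Assigned counts ranged from 4.36 to 28.6 M per bulk library and from 5.95 to 12.1 M per microglia library. Shared animals are not marked in the labels, so a p-value reflects spread among these libraries, part of which may be technical. Levels are given as CPM, the counts of a gene scaled to 1e+06 assigned counts. In 6 bulk libraries under 70% of reads were assigned to genes. Both control striatum PLX5622 libraries carry a no-treatment tag and were grouped by title. The 10 microglia marker genes summed to 410 to 562 CPM in the placebo control libraries of the 3 regions, to 32.6 to 77.9 CPM in the PLX5622 control libraries, and to 102 to 202 CPM in the PLX5622 MSA libraries. Csf1r and Fcrls of this list were at 0 in all control cortex PLX5622 libraries. In sorted microglia they summed to 46462 to 52323 CPM. In bulk tissue, fewer cells of a type and less RNA per cell cannot be told apart.

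A second property separated the libraries. The pseudogene Tmem181c-ps on chromosome 17 had under 20 counts in 6 of 8 control placebo and 3 of 8 MSA placebo bulk libraries, and 153 to 887 counts in all 14 PLX5622 libraries. It was also under 20 counts in 2 of the 3 control microglia libraries and at 105 to 256 in the MSA ones. This split moved in part with diet and genotype, and its part in the results below was not tested. It was noticed after the values of Ccr6 were seen.

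The 250 bases upstream of the transcript start are given for 5 genes on which the results turn, taken from RefSeq's promoter table (GRCm38.p6), which had an entry for 44 of the 60 genes. Ccl6 and Ccl3 are ligand genes of the chromosome 11 cluster that were high in microglia. Ccr1 and Ccr6 are receptor genes whose levels set microglia libraries apart, and Cxcl14 is the ligand that stood highest in bulk tissue. Capitals mark matches, searched on both strands, to an NF-κB site form (GGG and TTCC with any 3 bases between them) or an interferon-response form (GAAA repeated with any 2 bases between). GAGGAAG (a form bound by the myeloid factor PU.1) was also searched.
Ccl6, chr11:83593088-83593337, minus strand: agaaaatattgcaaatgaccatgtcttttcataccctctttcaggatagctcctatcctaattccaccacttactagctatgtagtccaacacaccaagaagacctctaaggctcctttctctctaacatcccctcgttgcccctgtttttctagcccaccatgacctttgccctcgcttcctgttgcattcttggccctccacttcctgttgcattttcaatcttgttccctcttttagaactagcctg
Ccl3, chr11:83649379-83649628, minus strand: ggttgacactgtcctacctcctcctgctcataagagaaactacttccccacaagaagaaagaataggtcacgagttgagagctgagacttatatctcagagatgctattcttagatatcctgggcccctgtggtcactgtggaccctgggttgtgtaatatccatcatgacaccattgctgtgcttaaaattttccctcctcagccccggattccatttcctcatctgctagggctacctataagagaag
Ccr1, chr9:123968693-123968942, minus strand: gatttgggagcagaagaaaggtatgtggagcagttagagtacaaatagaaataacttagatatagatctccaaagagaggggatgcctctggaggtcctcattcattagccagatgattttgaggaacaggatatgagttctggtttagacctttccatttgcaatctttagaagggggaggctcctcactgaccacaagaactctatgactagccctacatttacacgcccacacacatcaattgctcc
Ccr6, chr17:8242276-8242525, plus strand: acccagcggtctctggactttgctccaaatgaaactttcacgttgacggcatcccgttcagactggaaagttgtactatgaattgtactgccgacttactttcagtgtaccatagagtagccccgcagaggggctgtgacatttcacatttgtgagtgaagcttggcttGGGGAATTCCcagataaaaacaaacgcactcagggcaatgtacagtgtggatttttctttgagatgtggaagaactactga
Cxcl14, chr13:56296552-56296801, minus strand: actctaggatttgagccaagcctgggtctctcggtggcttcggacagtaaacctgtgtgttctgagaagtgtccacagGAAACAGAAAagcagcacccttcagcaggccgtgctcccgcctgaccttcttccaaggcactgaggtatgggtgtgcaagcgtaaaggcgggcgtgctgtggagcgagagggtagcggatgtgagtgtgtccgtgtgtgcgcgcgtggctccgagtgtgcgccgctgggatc

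The Ccr6 window held 1 match to the NF-κB form and the Cxcl14 window 1 match to the interferon-response form. Of all 32851 RefSeq promoters of this length, 4.65% held the first form, 2.98% the second and 10.6% GAGGAAG. Among the 44 chemokine and receptor promoters 9, 3 and 4 held them. The 9 with the NF-κB form were Ccl1, Ccl9, Ccl20, Ccr3, Ccr6, Cxcl1, Cxcl2, Cxcl3 and Cxcl10. These matches describe letters in the windows only.

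Of the 60 genes, 20 reached a mean of 5 CPM in at least 1 of the 14 groups, 14 peaked between 1 and 5 CPM, and 26 stayed under 1 CPM in every group. The ligands Ccl1, Ccl20, Ccl21b, Ccl21c and Cxcl15 had no count in any library. Only Ccl25, Ccl27a, Cxcl14, Cxcr4 and Ackr3 had counts in all 36 libraries. Another 8 genes had counts in bulk tissue but none in microglia, among them Ackr1, and Cxcr3 had counts in microglia only.

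**Figure D1:**
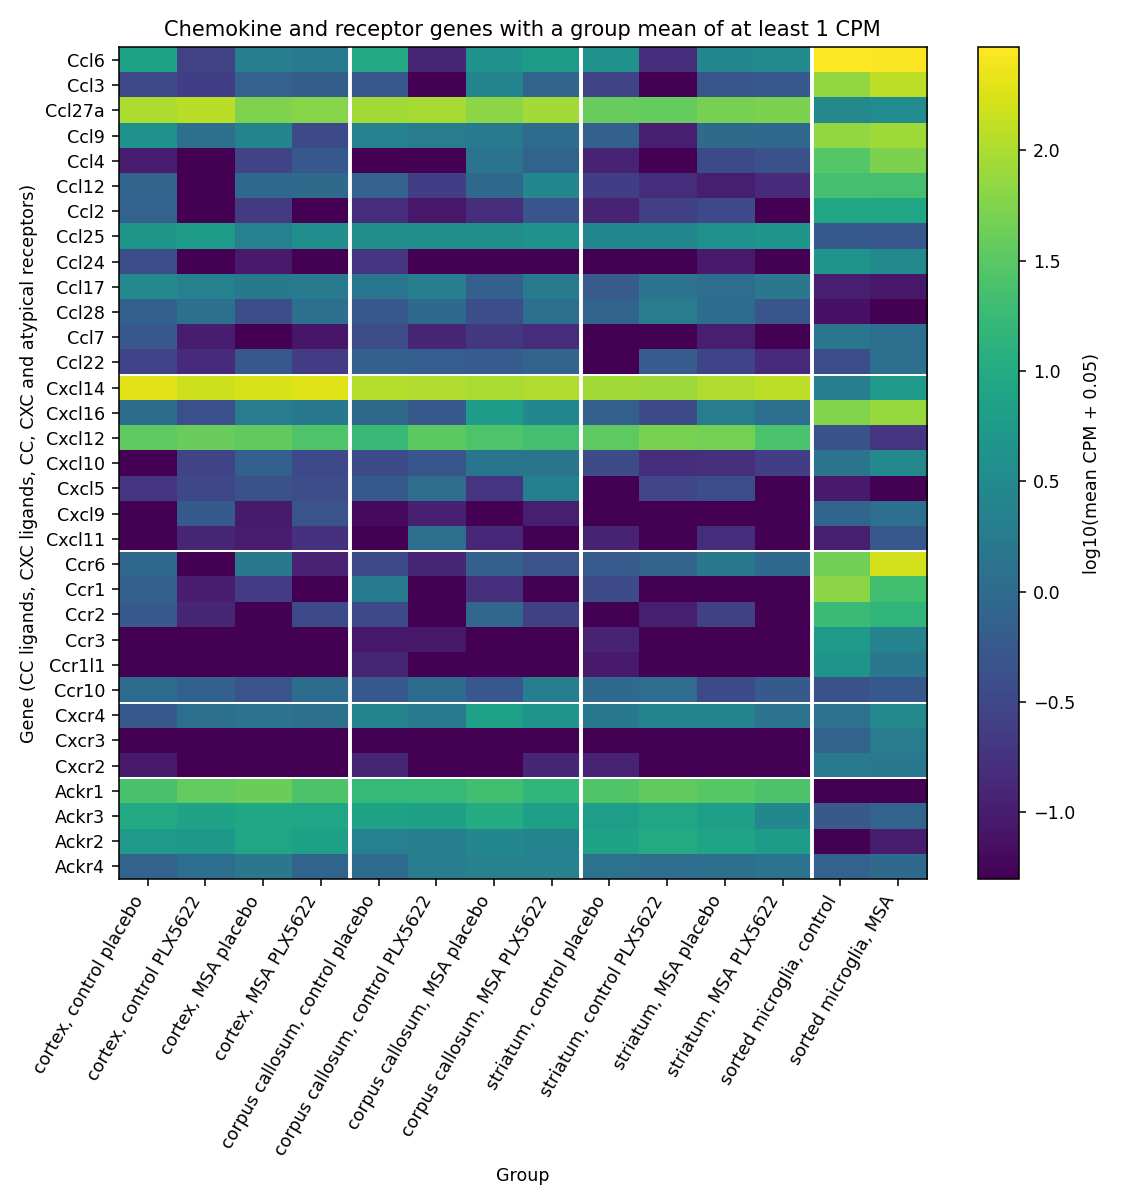
Mean level of genes that reached 1 CPM in a group, as log10(mean CPM + 0.05) by colour, with 1 row per gene (ligands above, receptors below) and 1 column per group of 2 or 3 libraries. Bulk tissue and sorted microglia held different sets: Cxcl14, Ccl27a, Cxcl12 and Ackr1 are bright in bulk columns and dark in the 2 microglia columns, and Ccl6, Ccl3, Ccl9 and Ccl4 the reverse.

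The level per kilobase of transcript, which allows genes to be set side by side, gave different orders in the 2 kinds of sample. In control microglia the order of mean CPM per kb among the ligands was Ccl6 (205), Ccl3 (91.2), Ccl4 (45.0), Ccl12 (41.7) and Cxcl16 (33.0). Ccl6 is a rodent CC ligand that acts on Ccr1. In placebo control cortex the order was Cxcl14 (107), Ccl27a (35.2), Ackr1 (20.8), Cxcl12 (6.01), Ccl17 (5.80) and Ccl6 (5.36). Cxcl14 was also first in control corpus callosum (60.7) and striatum (47.7). The next places in cortex rest on uneven libraries, since Ccl27a ran from 46.6 to 178 CPM and Ackr1 from 11.1 to 39.4 CPM there. Ackr1, the Duffy receptor of venous endothelium, shares 284 of its 1328 exon bases (GENCODE M21, GRCm38) on the same strand with Cadm3, a neuronal adhesion gene with a median of 334 CPM in bulk tissue and 0.13 CPM in microglia. Ccl27a and Ccl27b are near-identical copies, so their counts are uncertain.

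Sorted microglia were set against the 6 placebo cortex libraries to show which of the genes stand with that cell type. All 26 genes that passed the low-count filter differed (edgeR's quasi-likelihood test, Benjamini-Hochberg adjusted p under 0.05, as in all tests below). Of these 18 were higher in microglia, where 37.0% of all genes tested were higher, and 8 were lower, against 45.2% of all genes. The median log2 difference was 4.71 over the 26 and -0.20 over all 14946 genes tested. A gene that passed the filter through 1 of the 2 tissues had to differ, so the count does not describe the 34 genes that failed it.

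Ccl6 ran from 203 to 330 CPM in the 6 microglia libraries and from 0.73 to 14.2 CPM in placebo cortex, without overlap. It was higher by 6.28 ± 0.36 (SE) on the log2 scale (edgeR adjusted p = 3.03e-09). Ccl3 and Ccl4, the macrophage inflammatory proteins, reached 41.8 to 127 and 20.1 to 64.4 CPM in microglia against at most 1.19 and 0.40 CPM in cortex. Ccl9, another Ccr1 ligand, reached 53.0 to 105 CPM and Ccl12, a Ccr2 ligand, 18.0 to 28.0 CPM. Ccl2, the main monocyte attractant, was lower, at 6.69 to 11.4 CPM. Among CXC ligands, Cxcl16, a membrane-bound ligand of Cxcr6, was at 41.7 to 86.8 CPM against 0.28 to 2.55 CPM. Cxcl16 shares 552 of 3021 exon bases on the opposite strand with Zmynd15, which had a median of 22.6 CPM in microglia, and the strand setting of the counting is unknown here.

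Of the other receptors, Ccr1 was at 6.72 to 67.3 CPM in microglia and Ccr2, the monocyte receptor, at 11.9 to 20.8 CPM. Ccr3, Ccr1l1 and Cxcr2 were between 1.21 and 6.77 CPM. Ccr1 and Ccr1l1 are related copies, so reads may be shared between them. Ccl7, Ccl24 and Cxcl10 were also higher in microglia, at 0.80 to 4.89 CPM. Cxcr4, the receptor of Cxcl12, was only 1.22 ± 0.40 higher on the log2 scale (adjusted p = 0.0119), its range of 0.83 to 5.04 CPM overlapped that of cortex, and the call was lost with control libraries alone in the contrast (adjusted p = 0.0611).

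The 8 genes lower in microglia were 5 ligands and 3 atypical receptors. Cxcl14 was at 1.83 to 7.92 CPM in microglia against 132 to 255 CPM in cortex, lower by -5.75 ± 0.25 on the log2 scale (adjusted p = 1.83e-10). Cxcl12, the ligand of Cxcr4 and Ackr3, was at 0 to 0.50 against 15.1 to 52.9 CPM. Ccl27a was at 1.88 to 3.74, Ccl25 at 0.41 to 0.67 and Ccl17 at 0 to 0.17 CPM in microglia. Ackr3 was at 0.25 to 1.18 against 6.98 to 11.1 CPM. Ackr2, a scavenger of CC ligands, had counts in 1 of 6 microglia libraries (0.14 CPM) and was at 3.21 to 9.37 CPM in cortex, and Ackr1 had no count in microglia. The microglia libraries also held border-associated macrophage markers at 745 to 933 CPM (8 genes), choroid plexus markers at 522 to 1612 CPM (8 genes), monocyte and neutrophil markers at 29.1 to 111 CPM (8 genes) and dissociation-responsive genes at 3424 to 4676 CPM (8 genes), against 202 to 786 CPM for the last list in placebo cortex. Their part in these levels was not tested. Among 50 tested genes of chemokine signalling outside the family, 35 were higher and 14 lower in microglia, where 37.0% of all genes tested were higher and 45.2% lower. Higher were the exchange factor Vav1 (6.84 ± 0.23 on the log2 scale) and the phospholipase Plcb2 (5.99 ± 0.19), and the lower ones included the G protein subunit Gnai1 (-7.92 ± 0.19) and the phospholipase Plcb1 (-9.03 ± 0.23).

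On PLX5622, Ccl6 fell to near 0 in control cortex and in control corpus callosum. In control cortex Ccl6 stood at 3.91, 4.92 and 14.2 CPM in the placebo libraries and at 0.69, 0 and 0 CPM in the PLX5622 libraries. The diets did not overlap, and the third placebo library was the highest. Ccl6 was 1 of 2 genes called among 15 tested, where 0.486% of all genes tested were called. Over the groups 158 counts of Ccl6 stood against 3, a 44.3-fold difference (95% counting interval 14.9 to 217). The fitted log2 change, which depends on the prior count at such levels, was -5.24 ± 1.05 (edgeR adjusted p = 0.0454). The third placebo library was also 1 of those with under 70% of reads assigned and carried Tmem181c-ps counts at the level of the PLX5622 libraries. Without it the change was -4.46 (adjusted p = 0.147). The call was also lost without placebo library 2 (adjusted p = 0.0709), without PLX5622 library 2 or 3 (adjusted p = 0.254 and 0.197) and when the fit held just this pair of groups (adjusted p = 0.247).

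In control corpus callosum Ccl6 was the 1 gene called of 22 tested (0.460% of all genes). It was at 6.91, 6.43 and 14.3 CPM on placebo and at 0.15 and 0 CPM on PLX5622, which is 421 against 2 counts and a 119-fold difference (32.8 to 989). The fitted change was -6.54 ± 0.82 (adjusted p = 0.00619), and the call held whichever single library of these groups was left out (adjusted p 0.00502 to 0.0228). In a fit on these 2 groups alone the adjusted p was 0.0514. Markers of border-associated macrophages (8 genes) also went from 20.5 to 21.5 CPM on placebo to 4.32 to 5.01 CPM on PLX5622 here and from 22.2 to 32.5 to 1.89 to 6.88 CPM in control cortex, and their part in the result was not tested. Ccr1 had 56 counts on placebo and none on PLX5622, at least 10.6-fold lower, with an adjusted p of 0.559. In control striatum no gene of 15 was called (0.336% of all genes). Ccl6 was at 5.14 and 3.37 CPM on placebo and at 0 and 0.21 CPM on PLX5622 there (38.8-fold, 10.4 to 326, adjusted p = 0.145). Of the 15 genes, 2 had an unadjusted p under 0.05 in edgeR, against 334 of 14872 genes in all, and DESeq2 called Ccl6.

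In MSA tissue Ccl6 was not called for the diet. Ccl6 in MSA corpus callosum was at 3.88 and 4.57 CPM on placebo and at 7.06 and 4.08 CPM on PLX5622, and the groups overlapped. In MSA cortex it was at 0.73, 3.58 and 1.61 CPM on placebo and at 1.62, 2.32 and 1.53 CPM on PLX5622. In MSA striatum it was at 4.23, 3.36 and 0.68 against 4.06 and 1.90 CPM. No chemokine or receptor gene was called for the diet in MSA cortex (0.0548% of all genes called), corpus callosum (0.0693%) or striatum (0.0740%). At an unadjusted p under 0.05 edgeR gave 2, 0 and 1 of them, and DESeq2 called 0 in each region. Of all genes tested, 645 of 14600, 1346 of 15881 and 2053 of 14872 reached that unadjusted p in edgeR. Cx3cr1, a microglial receptor outside the list, had mean levels of 96.2, 103 and 83.3 CPM in placebo and of 15.8, 18.8 and 16.9 CPM in PLX5622 MSA cortex, corpus callosum and striatum.

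The difference between the genotypes in the response to the diet was tested as an interaction. It was called for Ccl6 in corpus callosum, at 6.84 ± 1.01 on the log2 scale (edgeR adjusted p = 0.0205), where 0.264% of all genes were called. Beside it stand the response of -6.54 ± 0.82 in control and of 0.29 ± 0.56 in MSA corpus callosum. The call was lost without control placebo library 2 or 3, either MSA placebo library, or the first PLX5622 library of MSA mice (adjusted p 0.0518 to 0.154). In cortex (0.0959% of all genes called) and striatum (0.0874%) no interaction was called. The Ccl6 values there were 5.07 ± 1.34 (adjusted p = 0.781) and 5.22 ± 1.37 (adjusted p = 0.802). Unadjusted p was under 0.05 in edgeR for 2 and 1 of 15 genes, against 551 of 14600 and 744 of 14872 genes in all. DESeq2 called Ccl6 in cortex and no gene in striatum. On PLX5622, Ccl6 was higher in MSA than in control corpus callosum, 170 against 2 counts (65.2-fold, 17.8 to 543, adjusted p = 0.0292, 0.195% of all genes called). This call was lost without MSA PLX5622 library 1 or 3 and in 2 groups alone (adjusted p = 0.772). The same comparison called none of 15 genes in cortex (0.151% of all genes) or striatum (0.222%). Of these, 2 and 3 had an unadjusted p under 0.05 in edgeR, against 412 of 14600 and 1631 of 14872 genes in all. DESeq2 called 0 and 1 of them. In corpus callosum Cx3cr1 (4.42 ± 0.35 on the log2 scale, edgeR adjusted p = 0.00104), Csf1r (4.30 ± 0.53, adjusted p = 0.00915) and P2ry12 (3.39 ± 0.44, adjusted p = 0.0132) were also higher in MSA PLX5622 libraries. The signalling gene Dock2 was higher there too (8.47 ± 1.29, adjusted p = 0.0425), and Tmem119 was not called. In cortex and striatum Csf1r, Cx3cr1, P2ry12 and Tmem119 were each called higher. These comparisons share libraries with the diet comparisons above. The interaction in corpus callosum was also called for 6 of 8 choroid plexus markers, the other way from Ccl6, with Ttr at -6.28 ± 0.60 (adjusted p = 0.00513). These 8 markers summed to 252 to 347 CPM on placebo and 1390 to 1490 CPM on PLX5622 in control corpus callosum, and to 3185 and 8189 CPM against 409 and 460 CPM in MSA corpus callosum. The microglial genes Cx3cr1 (3.71 ± 0.43 on the log2 scale, edgeR adjusted p = 0.00513) and P2ry12 (3.76 ± 0.55, adjusted p = 0.0187) also had a called interaction in corpus callosum. Theirs had the direction of Ccl6, and Csf1r and Tmem119 were not called. In cortex and striatum the interaction was called in that direction for Csf1r, Cx3cr1, P2ry12 and Tmem119. The part of these genes and of the choroid plexus markers in the Ccl6 result was not tested.

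**Figure D2:**
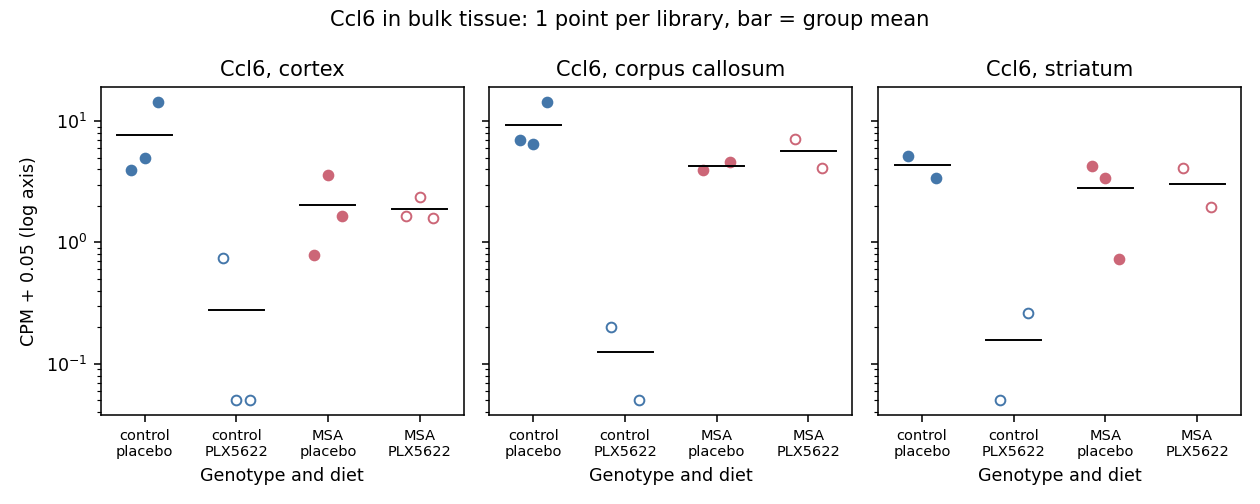
Level of Ccl6 in each bulk library, as CPM + 0.05 on a log axis, by region, genotype and diet, with filled points for placebo, open points for PLX5622 and a bar at the group mean. The control PLX5622 points lie at or under 0.69 CPM in all 3 regions, while the MSA PLX5622 points lie between 1.53 and 7.06 CPM.

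Other members of the microglial set had low bulk counts, and none of those given here was called for the diet. Ccl9 in control cortex was at 2.23, 1.42 and 9.24 CPM on placebo and at 3.44, 0 and 0.145 CPM on PLX5622, so the groups overlapped. Cxcl16 in control corpus callosum was at 1.62, 0.41 and 0.78 CPM on placebo and at 0.23 and 0.82 CPM on PLX5622. In MSA corpus callosum it was at 6.39 and 5.22 against 1.92 and 3.69 CPM, without overlap and not called (adjusted p = 0.615). The non-microglial ligand Cxcl12 in control corpus callosum was at 19.3, 19.8 and 12.8 CPM on placebo and at 37.5 and 27.2 CPM on PLX5622 (0.90 ± 0.28 on the log2 scale, adjusted p = 0.583). Cxcl14 overlapped between the diets in control tissue of all 3 regions. Of the 48 tested chemokine signalling genes outside the family, the diet lowered 3 in control cortex, namely Pik3cg, Vav1 and Dock2, the last by -4.96 ± 0.86 (adjusted p = 0.0172), where 0.486% of all genes were called. It lowered 6 of 49 in corpus callosum, among them Dock2, Vav1 and Was (0.460% of all genes called), and Vav1 and Dock2 of 48 in striatum (0.336%). In MSA tissue 0 of them were called in any region, where 8, 11 and 11 genes in all were called in cortex, corpus callosum and striatum. Vav1 and Dock2 are exchange factors for Rac, Pik3cg is a lipid kinase subunit and Was an actin regulator, all known from leukocytes.

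Between genotypes on placebo, none of the genes was called in cortex (15 tested, 0.00% of all genes called), corpus callosum (22 tested, 0.321%) or striatum (15 tested, 0.0336%). At an unadjusted p under 0.05 edgeR gave 1, 6 and 0 of them, and DESeq2 called 0, 1 and 0. In sorted microglia 0 of 20 were called (0.610% of all genes), 9 had an unadjusted p under 0.05, and DESeq2 called 1, Ccl4. Over all genes an unadjusted p under 0.05 was reached by 1266 of 11810 in microglia, and by 514 of 14600, 1354 of 15881 and 558 of 14872 in cortex, corpus callosum and striatum. Ccr1, Cxcl16 and Ccl4 had the same order of groups in 3 or 4 of these settings. They were picked after their values were seen, and the labels do not say whether the regions come from the same animals.

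Ccr1, the receptor of Ccl3, Ccl5, Ccl6 and Ccl9, was lower in MSA than in control libraries in all 4 settings, with no overlap in any. In sorted microglia it was at 60.8, 64.6 and 67.3 CPM in control and at 23.1, 34.4 and 6.72 CPM in MSA libraries. The difference was -1.58 ± 0.54 on the log2 scale with an adjusted p of 0.431, and without MSA library 3 it was -1.19 with an adjusted p of 0.0234. In corpus callosum Ccr1 was at 2.59, 1.37 and 1.01 CPM in control and at 0 and 0.22 CPM in MSA libraries, 56 counts against 1 (48.5-fold, 8.36 to 1951). The fitted difference there was -5.06 ± 1.73 on the log2 scale and was not called (edgeR adjusted p = 0.459). In cortex it was at 0.56, 0.52 and 0.92 against 0.29, 0 and 0.27 CPM, and in striatum at 0.40 and 0.27 CPM against 0 in 3 libraries. In these 2 regions Ccr1 failed the low-count filter and was not tested, and its order rests on a few reads per library. Of 17032 genes with counts in each of the 4 settings, 0.0117% were lower in every MSA library of all 4, which is 2 genes, Ccr1 and Zfand1.

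Cxcl16 and Ccl4 were higher in MSA libraries without overlap in 3 of the 4 settings. Higher in all 4 were 0.0646% of all genes, none of them a chemokine or receptor. That share is for a stricter measure than the 3 of 4 settings met by Cxcl16 and Ccl4. The share of all genes at 3 of 4 was not computed, so how common their order is remains unknown. Cxcl16 was at 1.62, 0.41 and 0.78 CPM in control and 6.39 and 5.22 CPM in MSA corpus callosum (2.64 ± 0.70 on the log2 scale, adjusted p = 0.254, and called by DESeq2). In striatum it was at 0.26 and 1.07 against 1.95, 2.40 and 1.49 CPM, and in microglia at 41.7, 62.5 and 62.8 against 64.4, 86.8 and 79.1 CPM. In cortex the Cxcl16 groups overlapped, at 0.279 to 2.00 CPM in control and 1.02 to 2.55 CPM in MSA libraries. Ccl4 had no count in 3 control corpus callosum libraries and was at 1.78 and 0.87 CPM in MSA ones, at least 21.1-fold higher. In striatum Ccl4 rested on 1 and 0 counts in control and 2 counts in each of the 3 MSA libraries, and in cortex on 1, 0 and 0 against 0, 2 and 3 counts, with overlap. In microglia Ccl4 was at 39.1, 29.1 and 20.1 against 46.4, 48.8 and 64.4 CPM (0.82 ± 0.27, adjusted p = 0.379). Cxcr4 in corpus callosum was at 2.81, 1.91 and 2.39 CPM in control and at 6.39 and 7.62 CPM in MSA libraries (1.57 ± 0.47, adjusted p = 0.347), while in microglia its groups overlapped. The same MSA corpus callosum libraries held 3185 and 8189 CPM of choroid plexus markers (8 genes) against 252 to 347 CPM in control ones, and 271 and 512 against 83.0 to 92.2 CPM of meningeal fibroblast markers (8 genes). In striatum choroid plexus markers reached 3848 CPM in 1 MSA library against at most 155 CPM in control ones. The 10 microglia markers, too, were higher in MSA placebo libraries without overlap in corpus callosum, at 569 and 705 against 450 to 538 CPM, and in striatum, at 475 to 633 against 410 and 438 CPM. In cortex they overlapped, at 414 to 695 against 445 to 562 CPM. The part of these marker levels in the values of Cxcl16, Ccl4 and Cxcr4 was not tested.

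**Figure D3:**
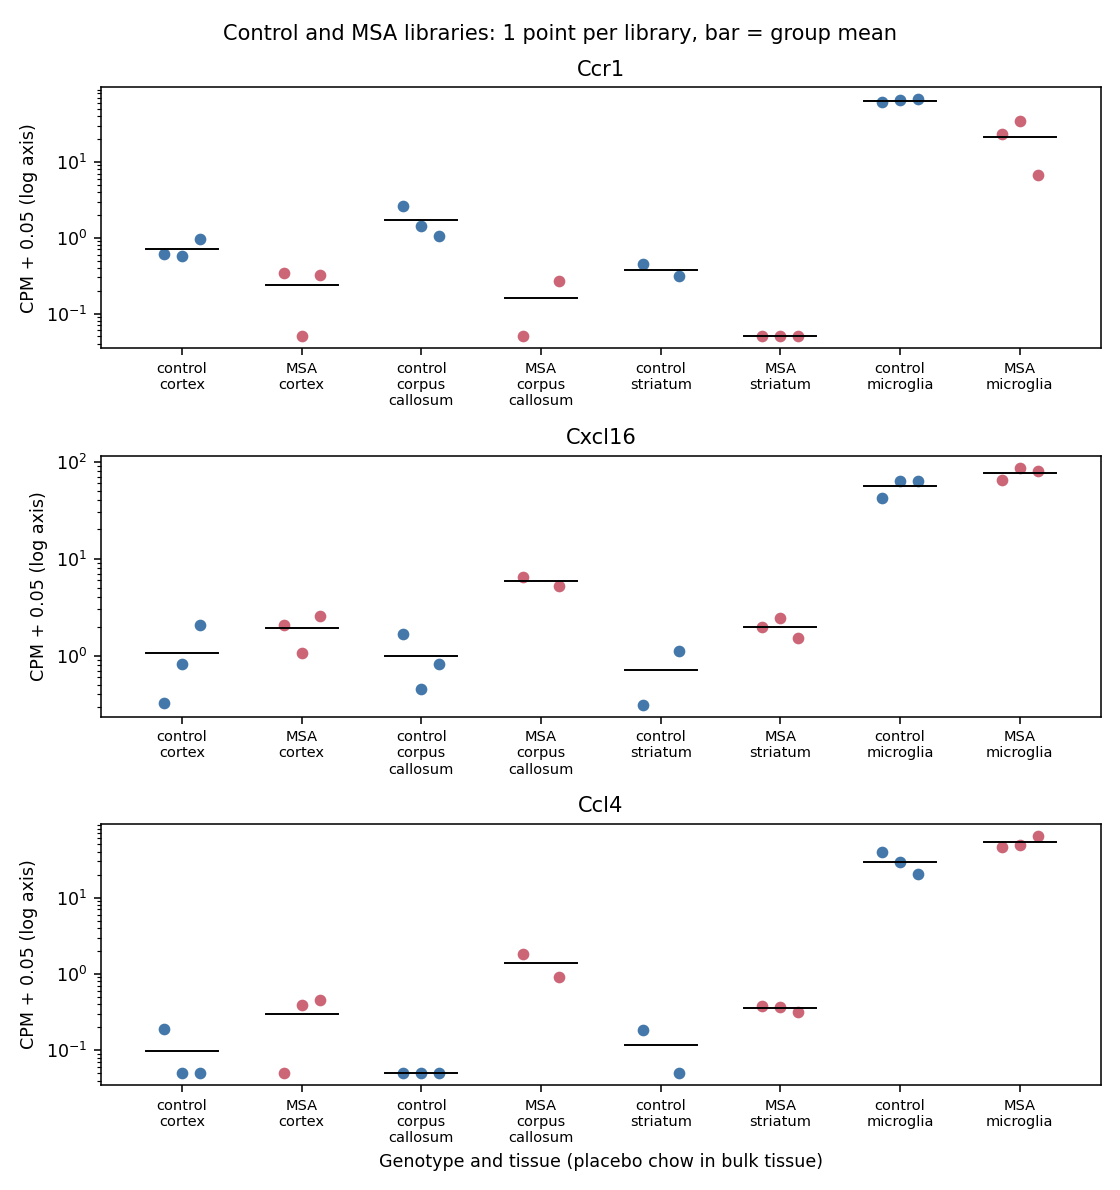
Level of Ccr1, Cxcl16 and Ccl4 in each placebo bulk library and each sorted microglia library, as CPM + 0.05 on a log axis, with control in blue, MSA in red and a bar at the group mean. Ccr1 is lower in every MSA library of each pair of groups, and Cxcl16 and Ccl4 are higher in all but cortex, where groups overlap.

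The neighbours of Ccr1 on chromosome 9 were measured in the same microglia libraries. Ccr1l1 was at 3.21, 3.67 and 6.19 CPM in control and at 1.25, 2.15 and 1.34 CPM in MSA libraries (-1.50 ± 0.36 on the log2 scale, adjusted p = 0.128). Ccr3, the eotaxin receptor, overlapped, at 2.68, 6.48 and 6.77 against 2.21, 3.40 and 1.51 CPM (adjusted p = 0.317). Ccr2 also overlapped, at 13.5, 20.8 and 20.1 against 11.9, 18.9 and 14.1 CPM. The unrelated genes Lztfl1 and Fyco1, which lie near Ccr1 on the same chromosome, were at 15.1 to 20.9 and 63.8 to 73.6 CPM. Of the ligands of Ccr1, Ccl3 was at 119, 53.8 and 41.8 against 118, 119 and 127 CPM, and it passed the threshold without control library 1 (1.31 on the log2 scale, adjusted p = 0.00024) and not with it (0.73 ± 0.45, adjusted p = 0.654). Ccl6 and Ccl9 overlapped between the genotypes, at 203 to 330 and 53.0 to 105 CPM.

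Ccr6, the receptor of Ccl20, fell into 2 separate levels in sorted microglia. It was at 137, 0.73 and 1.07 CPM in the control libraries and at 117, 132 and 235 CPM in the MSA libraries. Control library 1 thus stood with the MSA libraries, and the genotypes overlapped (1.80 ± 1.76 on the log2 scale, adjusted p = 0.794, and 7.36 with an adjusted p of 0.0552 without control library 1). Its ligand gene Ccl20 had no count in any library. Genes that split the same libraries in the same way were sought after this was seen, requiring at least 4-fold between the 2 sets and over 5 CPM in a library. Ccr6 and 12 others met this out of 10408 genes over 5 CPM, and 0 met the reverse. Of the 13, 11 lie on chromosome 17, which holds 581 of the 10408 genes. They include H2-Q1, H2-Q2, H2-Q5 and H2-Q10 of the major histocompatibility complex, the pseudogene H2-Ea-ps and the mismatch-repair homologue Msh5, and they span chr17:6610103-48468684 in the deposited table (mm10). H2-Ea-ps was at 15.4, 0 and 0 CPM in control and at 11.5, 18.8 and 14.8 CPM in MSA microglia. None of the genes directly around Ccr6 (chr17:8242526-8257129, plus strand) met the 4-fold limit in that direction. Fgfr1op and Sft2d1 were at 34.4 to 42.5 and 34.6 to 47.1 CPM. Prr18 was at 6.36 and 13.7 CPM in control libraries 2 and 3 and at 24.2 to 33.6 CPM in the other 4, and Rnaset2a at 33.8 and 36.5 against 52.8 to 85.0 CPM, so both divided the same libraries by less. Mpc1, the next gene downstream, divided them the other way, at 5.87 and 5.70 against 0.504 to 3.06 CPM.

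In placebo cortex the few Ccr6 counts followed the same genes. There were 0, 0 and 17 Ccr6 counts in control and 0, 16 and 16 in MSA libraries, beside 0, 6 and 216 and 10, 157 and 170 counts of Tmem181c-ps, which is among the 11. In PLX5622 cortex Ccr6 had 0 or 1 count in each of 6 libraries, while Tmem181c-ps stayed at 153 to 219 counts. In placebo corpus callosum Ccr6 had 0, 0 and 21 counts in control and 0 and 6 in MSA libraries. Tmem181c-ps had 5, 7 and 880 and 5 and 108 counts in them. On PLX5622 that region had 2 and 0 Ccr6 counts in control and 15 and 0 in MSA libraries. Tmem181c-ps stood there at 322 and 743 and at 887 and 258 counts. In striatum the 2 genes did not go together, since Ccr6 had 5 counts in each placebo control library with 0 and 18 counts of Tmem181c-ps.

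**Figure D4:**
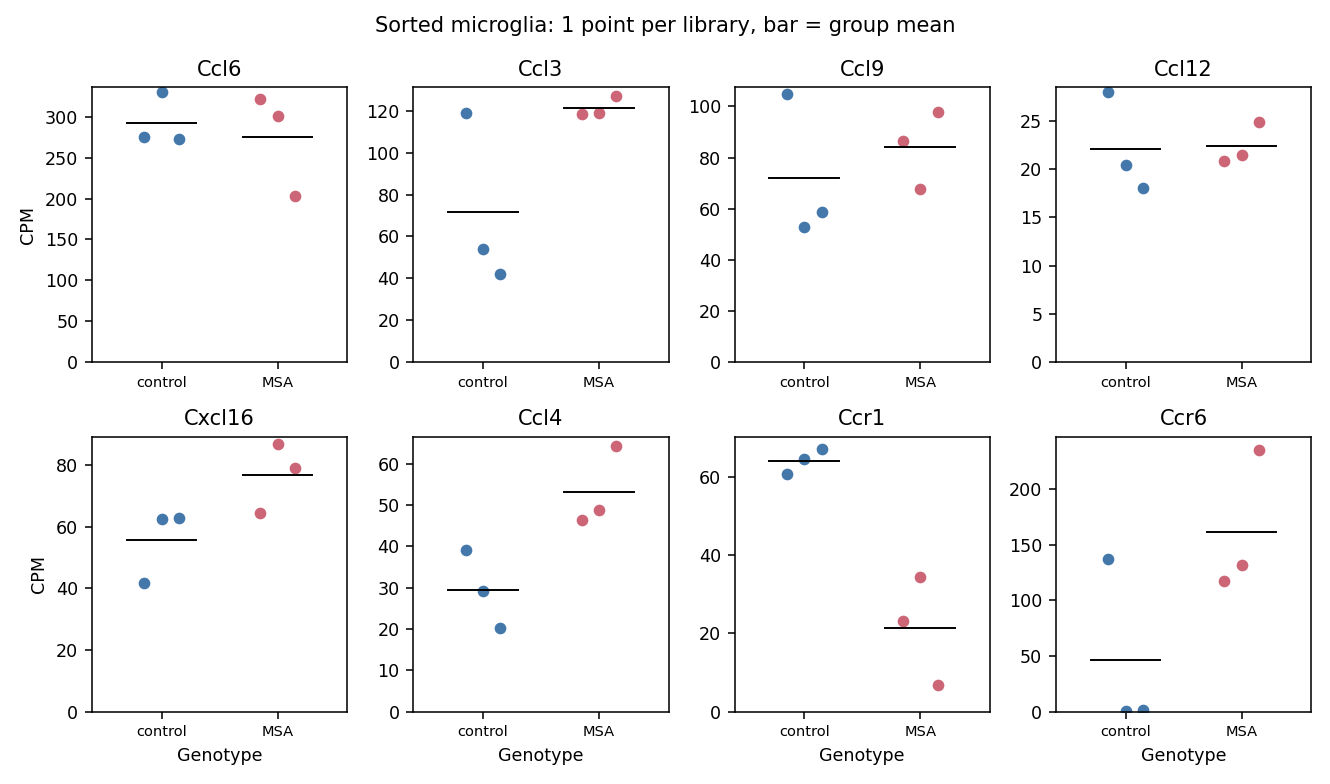
Level of 8 genes in each sorted microglia library, in CPM on a linear axis from 0, with control in blue, MSA in red and a bar at the group mean of 3 libraries. Ccr1, Ccl4 and Cxcl16 do not overlap between the genotypes, Ccr6 lies near 1 CPM in 2 control libraries and at 117 to 235 CPM in the other 4, and Ccl6, Ccl3, Ccl9 and Ccl12 overlap.

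Regions were compared on placebo over both genotypes. In corpus callosum against cortex 3 of 22 genes were called, with 8.84% of all genes called. Cxcr4 was higher by 2.18 ± 0.42 on the log2 scale (adjusted p = 0.00106), at 1.91 to 7.62 CPM over 5 libraries against 0.42 to 1.88 CPM over 6, without overlap. With control libraries alone it missed the threshold (2.06, adjusted p = 0.0599). Ackr2 was lower by -1.49 ± 0.29 (adjusted p = 0.00138), at 1.31 to 4.16 against 3.21 to 9.37 CPM. Cxcl14 was lower by -0.94 ± 0.20 (adjusted p = 0.00232), at 86.3 to 134 against 132 to 255 CPM. Mbp, the myelin gene, was 2.64 ± 0.29 higher in the same comparison.

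In striatum against cortex 2 of 22 genes were called, with 21.4% of all genes called. Cxcl14 was lower by -0.99 ± 0.20 (adjusted p = 0.000507), at 73.7 to 141 CPM in striatum. Cxcr4 was higher by 1.20 ± 0.43 (adjusted p = 0.0473). That call was lost with any of 8 libraries left out, and without control striatum library 1 the difference was 0.79 (adjusted p = 0.300). In striatum against corpus callosum Ackr2 alone was called of 22 (13.1% of all genes), higher by 1.68 ± 0.30 (adjusted p = 0.000387), at 6.58 to 10.1 CPM without overlap. Cxcl14 thus stood highest in cortex, with corpus callosum and striatum not called apart, and Ackr2 stood lowest in corpus callosum, with cortex and striatum not called apart. Ackr3, a scavenger of Cxcl12 and Cxcl11, was called in none of the 3, at 4.48 to 11.3 CPM over all placebo libraries. Cxcl12 reached 71.2 CPM in striatum and 12.8 CPM at its lowest in corpus callosum, and it was not called, though in striatum against corpus callosum it was called by DESeq2 and by edgeR without MSA striatum placebo library 1. Of 49 chemokine signalling genes, 5 were higher and 7 lower in striatum than in cortex, among them the exchange factor Rasgrp2 (3.09 ± 0.27) and the receptor kinases Grk2 (-1.32 ± 0.18) and Grk3 (-1.36 ± 0.19).

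**Figure D5:**
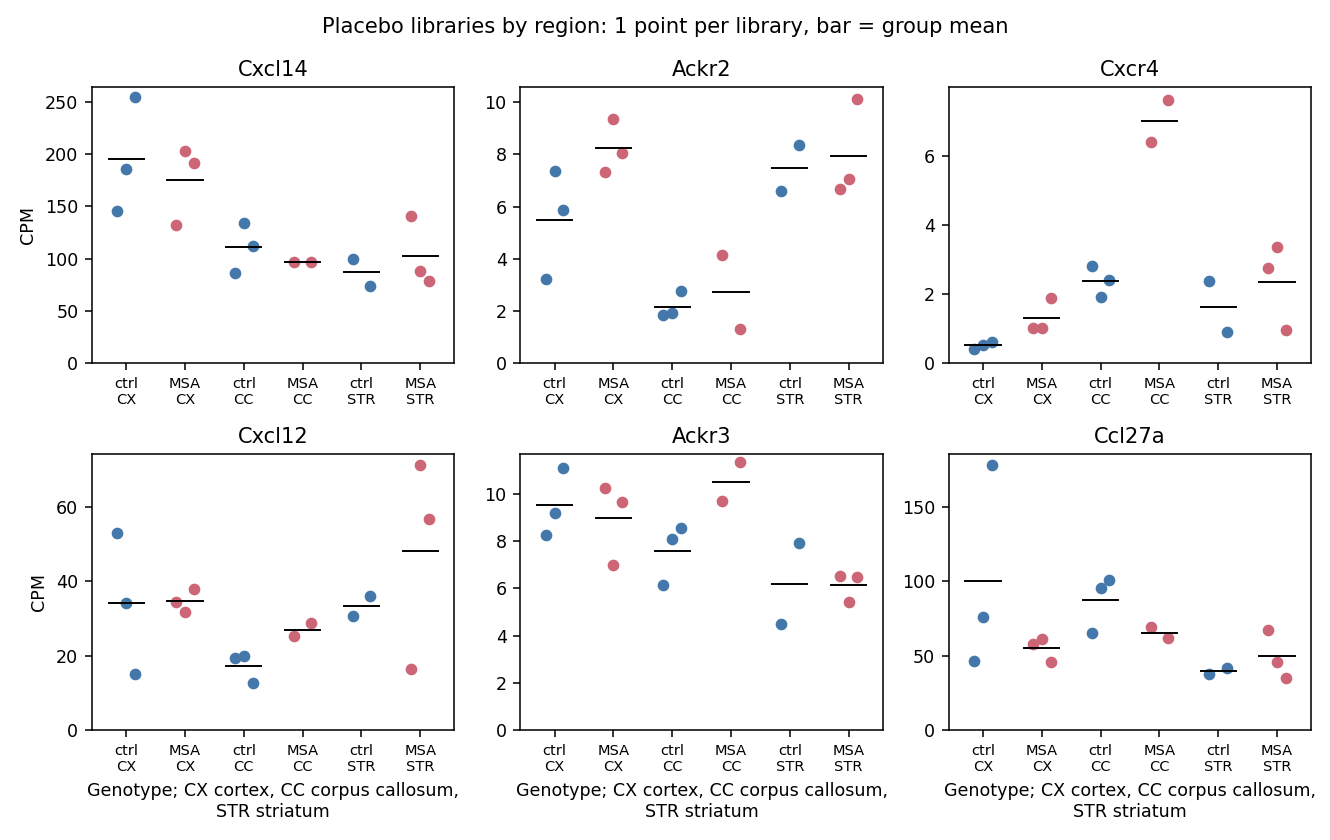
Level of 6 genes in each placebo bulk library, in CPM on a linear axis from 0, by region and genotype (control in blue, MSA in red), with a bar at the group mean. Cxcl14 is highest in cortex, Ackr2 lowest in corpus callosum and Cxcr4 highest in MSA corpus callosum at 6.39 and 7.62 CPM, while Ccl27a has 1 cortex library at 178 CPM.

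Ccl27a and Ccl25 moved with the share of reads assigned to genes in some regions. Ccl27a, a ligand of Ccr10, was at 178 and 248 CPM in the 2 cortex libraries with under 70% assigned and at 41.5 to 75.9 CPM in the other 10. In corpus callosum it was at 101 to 136 CPM in 3 such libraries and at 48.6 to 95.7 CPM in the other 6. In striatum the 1 such library was at 66.1 CPM, within the 32.3 to 67.5 CPM of the other 8. Ccl25, a ligand of Ccr9, was at 9.40 and 12.6 against 0.87 to 4.85 CPM in cortex. In corpus callosum Ccl25 overlapped, at 3.54 to 5.25 CPM in the 3 libraries against 2.13 to 5.06 CPM in the other 6. In striatum Ccl25 was at 5.21 against 2.45 to 4.32 CPM. It shares 204 of 7445 exon bases on the opposite strand with Elavl1, at a median of 106 CPM in bulk tissue. The part of assignment in these levels was not tested. With the assigned share as a covariate, chosen after seeing the data, Ccl27a was called lower in striatum than in cortex and in corpus callosum.

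The remaining genes were sparse. Among ligands, Ccl17 and Ccl28, which act on Ccr4 and Ccr10, reached a group mean of 2.95 and 1.83 CPM, both in bulk tissue. The interferon-induced ligands Cxcl9 and Cxcl10 reached 1.14 and 2.90 CPM in MSA microglia and Cxcl11 1.11 CPM in PLX5622 control corpus callosum. That Cxcl11 mean rests on library 2 alone, at 2.22 CPM with 59.5% of reads assigned, since library 1 had no count. Ccl8 had 14 counts in MSA and 1 in control microglia (17.7-fold, 95% counting interval 2.69 to 746). The interval leaves out spread between libraries, and Ccl8 failed the low-count filter there and was not tested. Ccl5, a ligand of Ccr1 and Ccr3, reached 0.99 CPM in MSA microglia. The neutrophil ligands Cxcl1, Cxcl2 and Cxcl3 stayed under 1 CPM in every group, as did Ccr4, Ccr7, Ccr8, Ccr9, Cxcr5 and Cxcr6, receptors known from lymphocytes, and Xcr1, known from dendritic cells. Ackr4, which scavenges Ccl19, Ccl21 and Ccl25, reached 2.30 CPM and shares 352 of 2964 exon bases with Acad11 on the opposite strand. T, NK and B cell markers summed to at most 1.09 CPM as a group mean in the 12 bulk groups.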

How the data were processed

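Bulk tissue and sorted microglia were sequenced, and the values used were the raw read counts per gene that the authors deposited; STAR, HOMER, DESeq2 and the mm10 build are named per the submitters' processing notes, without versions. The strand setting of the counting is not given here. The TPM table was not used. The assigned share is the sum over genes divided by the total in the file headers. Counts were fitted with edgeR 4.0.16 (R 4.3.3, limma 3.58.1): genes passing a minimum count of 10 by group, TMM scaling, robust quasi-likelihood F tests and Benjamini-Hochberg adjustment over all genes tested, with a threshold of 0.05. The 4 groups of each region shared 1 fit, microglia were fitted alone, regions in 1 fit of all 30 bulk libraries averaged over the genotypes on placebo, and microglia against cortex in 1 fit with placebo cortex. Errors of log2 values are standard errors. Alternatives were DESeq2 1.42.0, RLE scaling, no low-count filter, a replicate block, each library left out, 2 groups alone and 2 settings on the assigned share chosen after seeing the data. Where a group had 1 to 3 counts, ratios of summed counts carry 95% exact counting intervals, and against 0 counts a floor of 3 counts over the group was used; both cover counting error only. The fits were tested on simulated data: of genes changed by log2 2 the share recovered was 64% for the diet in control cortex (14364 genes) and 91% between microglia genotypes (11687 genes), and 7% and 72% at log2 1. Of the genes called in the simulations 5.33% and 11.9% had not been changed, and 7.46% for the diet in control corpus callosum (15583 genes). Recovery in that last simulation was 57% at log2 2 and 5% at log2 1. Changed genes were drawn at random from all that passed the filter, so recovery at the low bulk counts of this family was not measured. The 30 replicate pairs differed by more than sampling noise.

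Genes of the family were given in values where a group mean reached 5 CPM or a test called them, and by range otherwise. Up to 4 chemokine signalling genes of smallest p were named per comparison. Genes beside Ccr1, on chromosome 17 with Ccr6, and Zfand1 were named after values were seen. The members and lists were chosen with earlier results of these data known. Results of some genes are not reported here.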

Additional observations from a re-analysis of the deposited data

Results flagged for a closer look

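The response of Ccl6 to PLX5622 differed between the genotypes in corpus callosum by a test of the difference itself, an interaction of 6.84 ± 1.01 on the log2 scale (edgeR adjusted p = 0.0205). This call was lost without control placebo library 2 or 3 (edgeR adjusted p = 0.0518 and 0.0616) and with the replicate block (edgeR adjusted p = 0.289). The other single libraries that cost it the call are named above. Ccl6 went from a mean of 9.20 to 0.076 CPM in control libraries and from 4.22 to 5.57 CPM in MSA libraries. Tmem181c-ps was under 20 counts in 2 of 3 control and 1 of 2 MSA placebo libraries and above in all 4 PLX5622 libraries of this region. The 8 choroid plexus markers summed to 252 to 347 CPM on placebo and 1390 to 1490 CPM on PLX5622 in control libraries, and to 3185 and 8189 CPM against 409 and 460 CPM in MSA libraries. The microglial genes Cx3cr1 (3.71 ± 0.43, edgeR adjusted p = 0.00513) and P2ry12 (3.76 ± 0.55, adjusted p = 0.0187) had a called interaction in the direction of Ccl6. The part of these genes and markers in this result was not tested. The third control placebo library, with 880 counts of Tmem181c-ps, held the highest Ccl6 level of the region.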

How the results depend on the processing

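Counts of chemokine and receptor genes called are given where they moved by more than 1.5 times. Smaller moves were 25 to 35 for microglia against cortex, with 35 reached without the low-count filter, and 2 for corpus callosum against cortex with control libraries alone. With the replicate block they were 0 for the diet in control cortex and control corpus callosum, 0 for genotype on PLX5622 and for the interaction in corpus callosum, 4 for genotype on PLX5622 in striatum (Ccl6, Ccl27a and Cxcl14 higher, Ackr3 lower) and 1 for striatum against cortex. The replicate numbers were not found to pair libraries, since correlations of same-numbered libraries ran from -0.72 to 0.65 in cortex, and the block left Ccl6 at -6.39 (adjusted p = 0.0769) for the diet in control corpus callosum and at 6.41 (adjusted p = 0.289) for the interaction there. It moved no other of these counts. DESeq2 gave 1 for the interaction in cortex, 2 for the diet in control corpus callosum, 1 for genotype on placebo, 2 for genotype on PLX5622 and 2 for the interaction there, 1 for the diet in control striatum, 1 for genotype on PLX5622 in striatum, 1 in microglia, 4 for striatum against cortex and 2 for striatum against corpus callosum. Without the low-count filter there were 2 for the diet in control corpus callosum, 1 in control striatum, 2 in microglia and 1 for striatum against cortex. In 2 groups alone there were 0 for the diet in control cortex and control corpus callosum, 1 for genotype on placebo in corpus callosum and 0 on PLX5622. With the 6 libraries of low assigned share left out there were 1 for the diet in control cortex, 0 for genotype on PLX5622 in corpus callosum, 1 for striatum against cortex and 2 against corpus callosum. With that share as a covariate there were 2 for the diet in control corpus callosum, 5 for striatum against cortex and 2 against corpus callosum, and with control libraries alone 1 for striatum against cortex. Leaving out 1 library gave 0 to 2 for the diet in control cortex, 1 to 2 in control corpus callosum, 0 to 1 for genotype on PLX5622 and for the interaction there, 0 to 1 in microglia, and 1 to 2 for striatum against cortex and against corpus callosum. The diet change of Ccl6 in MSA cortex ran from -0.57 to 0.62 with 1 library left out, and in MSA corpus callosum from -0.093 to 0.60, being -0.090 without low assigned libraries and -0.25 with the covariate. Of the values for single genes under these alternatives, 781 kept their direction and side of the threshold, 41 lost and 13 gained a call and 4 reversed. The cause was not tested. Counts under 20 in a group limit most bulk values.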
